A study of Mus musculus with 12 samples.

Results

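The late-numbered microRNAs (miRNAs) are those with a number of 1000 or more after miR-, a number given roughly in the order of discovery. They were chosen by name alone, from miR-1186 to miR-2183, with miR-1188, miR-1193 and miR-1197 left out and no starred strand among them. There were 84 of them, each on 1 spot, among the 750 miRNA spots of the panel. Of the 84, 55 had a ratio in the authors' deposited table and 29 had none.

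The panel measured total RNA of hand-picked pancreatic islets from male C57BL/6 offspring, 2 to 3 months old, by TaqMan real-time PCR. The mothers received a low-protein diet (LP0.5, 6 samples) or a control diet (Control, 6 samples) throughout pregnancy, and the islets recovered overnight in culture before RNA isolation. The study asked which miRNAs of the islet differ in the grown offspring after that exposure. The only values used here are the linear ratios that the authors deposited, a single number per spot, with LP0.5 over Control as the heading. They carry no replicate values, no error and no amplification cycles, so no ratio below has a test, a p-value or a level behind it.

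A miRNA is cut from a hairpin precursor, first by the Drosha and Dgcr8 complex in the nucleus and then by Dicer, and it guides Argonaute proteins to messenger RNAs that pair with its seed, the bases near its 5′ end. Either arm of the hairpin, 5p or 3p, can give a stable product. Many miRNAs found late, by deep sequencing, are less conserved and less abundant than the early ones, and some names were later recognised as fragments of other small RNAs. Their roles in islets are in most cases not established. For that reason the roles given below are those of genes whose spans hold them, taken without regard to strand.

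Mature sequences were taken from RefSeq (GRCm38.p6), which held an entry for 53 of the 84 names. For 42 of these names 1 mature sequence matched, and for 11 a name without an arm matched both arms, so that the arm assayed is not known. The sequences that carry the far ends of the distribution come first, 5′ to 3′, with the seed (bases 2 to 8) in capitals. Those listed far above 1 were:
miR-1903: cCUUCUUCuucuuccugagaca
miR-1962: aGAGGCUGgcacugggacacau
miR-1898: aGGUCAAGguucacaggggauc
miR-1969: aAGAUGGAgacuuuaacaugggu
miR-1941-5p: aGGGAGAUgcugguacagaggcuu
miR-1954: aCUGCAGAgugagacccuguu
Those listed far below 1 were:
miR-1897-3p: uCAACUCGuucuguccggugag
miR-1894-3p: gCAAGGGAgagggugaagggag
miR-1928: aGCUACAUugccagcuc
For miR-1199, miR-1943 and miR-1981, also at the ends, both arms are shown, since the assay names do not say which was measured:
miR-1199-5p: uCUGAGUCccggucgcgcgg
miR-1199-3p: uGCGGCCGgugcucagucggc
miR-1943-5p: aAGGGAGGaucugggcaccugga
miR-1943-3p: cAGGUGCCagcuccucccuuc
miR-1981-5p: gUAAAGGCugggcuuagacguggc
miR-1981-3p: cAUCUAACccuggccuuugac

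The late-numbered miRNAs with a ratio lay on both sides of 1. Of the 55, 26 were listed above 1 and 29 below, with a median ratio of 0.976 (-0.03 on the log2 scale), against 1.01 over the 566 miRNA spots of the panel with a ratio. Past 1.5-fold above 1 were 16 of them, where the share over all miRNA spots was 18.6%, and past 1.5-fold below 1 were 13, where that share was 16.8%. That is 29.1% and 23.6% of the members with a ratio. The other 26 lay within 1.5-fold of 1.

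All 84 assays belonged to the B set, the panel's second group of 8 blocks. The other 207 miRNA spots of that set with a ratio had a median of 1.07, with 117 above 1 and 90 below. The median of the 304 in the A set was 0.976. In the B set as a whole, 24.8% of miRNA spots with a ratio were past the upper limit and 17.9% past the lower, 42.7% in all, while the share in either direction was 35.3% over all miRNA spots. Past the limit in either direction were 52.7% of the late-numbered miRNAs, 55.6% of the 36 listed mouse miRNAs numbered from 670 up to 1000, 40.1% of the other 207 miRNA spots of the B set, and 28.9% of the 304 of the A set. At 2-fold the counts were 11 above and 11 below, against shares of 12.4% and 11.8% over all miRNA spots. At 4-fold they were 6 above and 5 below, against shares of 6.36% and 6.18%. Together that is 20% of the members with a ratio, where 16.4% of B set spots lay as far out. The quartiles were 0.692 and 1.67 for the late-numbered miRNAs and 0.799 and 1.45 for the other spots of the B set. For the mouse miRNAs numbered from 670 up to 1000 they were 0.604 and 1.68. These are descriptions of 1 value per spot; whether the late-numbered miRNAs differ from the other spots was not tested.

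**Figure D1:**
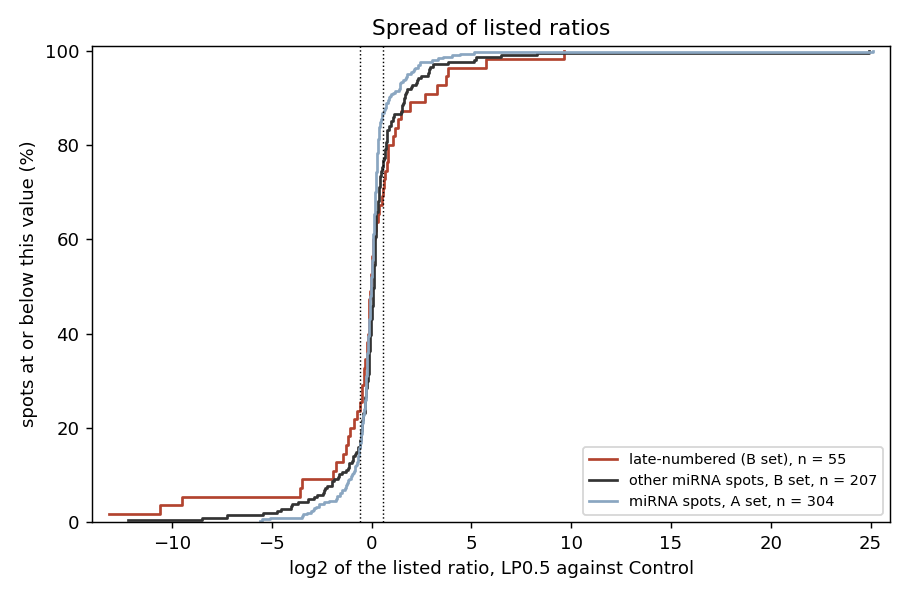
Cumulative share of spots (vertical axis, percent) by the log2 of the listed ratio (horizontal axis) for the 55 late-numbered miRNAs, the other 207 miRNA spots of the B set and the 304 of the A set; the dotted lines mark 1.5-fold. Below 0 lie 29 of the 55 late-numbered spots, 90 of the 207 other B set spots and 159 of the 304 A set spots. Of the late-numbered spots, 23.6% lie past the left dotted line and 29.1% past the right.

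The control assays of the same set show how far repeated spots of 1 assay lay apart. As each spot has a single ratio, this spread does not show differences between animals. In the B set the 8 U6 spots had a mean log2 ratio of 0, so the ratios are relative to U6, a spliceosomal small RNA. Medians of the other small RNA controls were 1.04 for U87, 1.04 for snoRNA202, 1.18 for snoRNA135 and 1.495 for Y1 (0.58 on the log2 scale). The Y1 median was thus close to the 1.5-fold limit, and its highest spot, at 1.91 in the authors' deposited table, was past it. Repeated spots of 1 control, with U6 included, lay within 1.29-fold of their own median at the 95th percentile. The 2 farthest were a U87 spot at 0.133 in the authors' deposited table, 7.79-fold from the median of its control, and a Y1 spot at 0.883 in the authors' deposited table, 1.69-fold from its own. The plant miRNA ath-miR159a, for which mice have no gene, stood at all 8 of its B set spots, from 2.59 to 3.37 in the authors' deposited table. At least as far from 1 as its highest spot were 7 late-numbered miRNAs above 1, where 9.54% of B set spots were, and 7 below, where 9.92% were. Inside its B set range lay 1, miR-1306. In the A set only 2 of the 8 spots of this plant control had a ratio, 0.139 and 1.96 in the authors' deposited table, on opposite sides of 1. Elsewhere on the panel, 38 miRNA names were carried by a pair of different assays. The difference within a pair had a median of 1.31-fold and a 95th percentile of 5.98-fold. It is a difference between 2 assays, not the distance of 1 ratio from 1, so that percentile serves only as a mark. Farther from 1 than that were 6 late-numbered miRNAs above 1 and 5 below, where the share of B set spots was 6.49% in each direction. What part the plant signal or differences between assays have in the ratios was not tested.

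Which group was higher is known from the column heading alone, by which ratios above 1 stand for more in LP0.5. MiR-199a-3p, which the study is known for naming as raised by the low-protein diet, stood at 0.422 in the authors' deposited table. For that reason ratios are described only by their side of 1. Islet identity could not be checked from ratios, since a ratio between groups gives no level of a marker, and levels were not analysed here. The islet miR-375 stood at 1.17 and miR-7 at 0.918 in the authors' deposited table. Of the markers of other cells, the acinar miR-216b at 0.970 and miR-216a at 0.726 lay within 1.5-fold of 1 in the authors' deposited table. The assays of the acinar miR-217 gave 0.950 and 1.83. The planned endothelial marker, miR-126-3p, was not found under that name, so no endothelial marker is given. The lymphocyte miR-150 at 1.78 and the red cell miR-451 at 0.620 were past 1.5-fold on opposite sides in the authors' deposited table, and miR-142-3p stood at 1.20. Their part in the ratios of the late-numbered miRNAs was not tested.

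**Figure D2:**
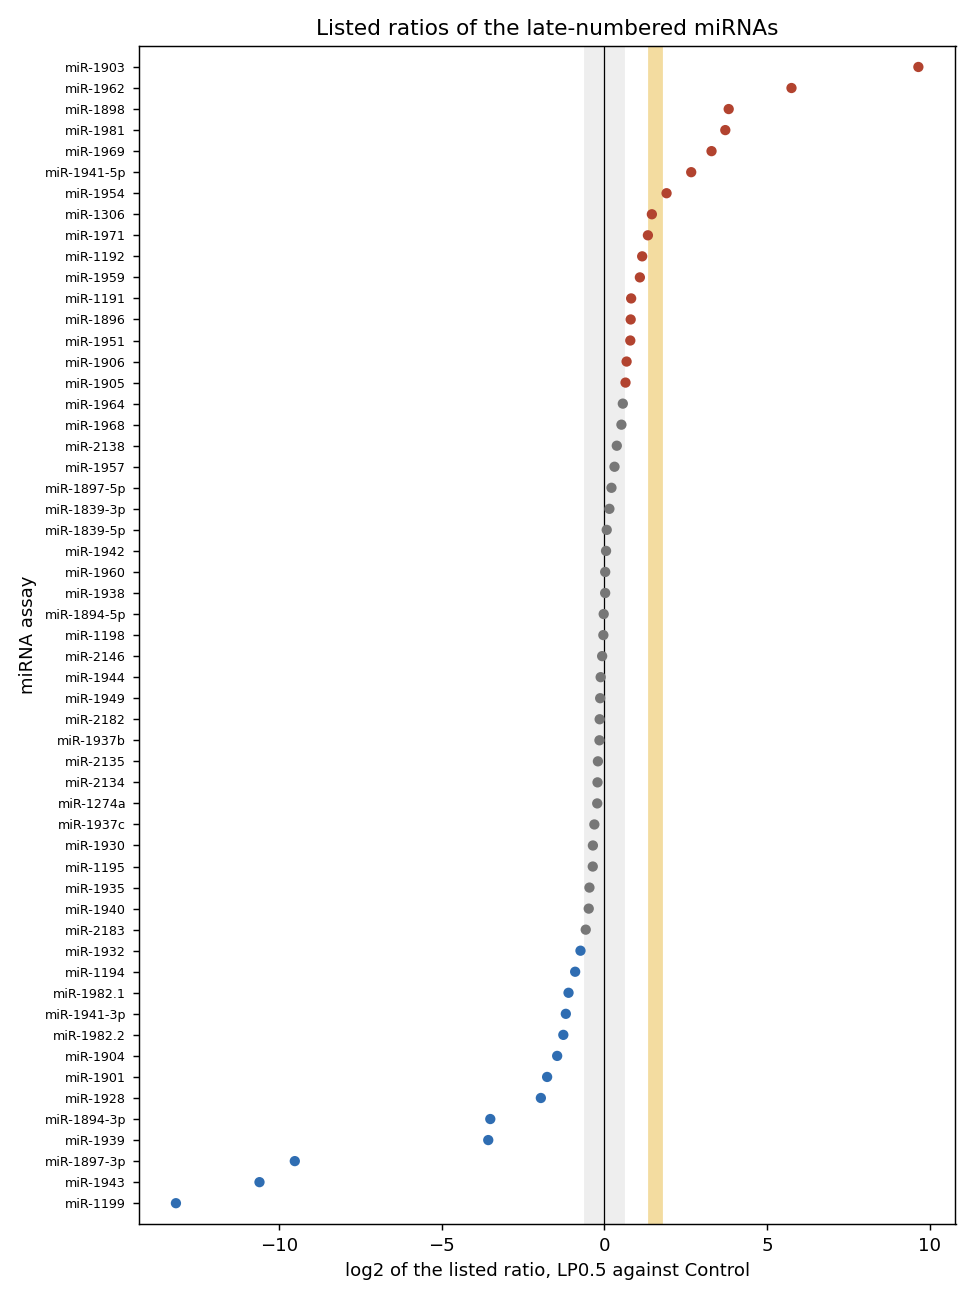
The 55 late-numbered miRNAs with a ratio (vertical axis, in order) by the log2 of the listed ratio (horizontal axis); red points are past 1.5-fold above 1, blue points past 1.5-fold below, the grey band is within 1.5-fold and the yellow band is the range of the plant control in the B set. The 16 red and 13 blue points reach farther from 1 than the 26 grey ones, up to 801 and down to 0.000109 as ratios, and 7 red points lie beyond the yellow band.

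At the upper end stood miR-1903, which lies within the span of Nrp1, the gene of a co-receptor for semaphorins and vascular endothelial growth factor. It had the highest value of the group, 801 in the authors' deposited table. It was not the highest on the panel, where the other B set miRNA spots reached 3.13e+07 and the A set 3.63e+07. The next was miR-1962, within Ptpre, a protein tyrosine phosphatase gene, listed at 53.7 in the authors' deposited table. MiR-1898, within the RNA-binding protein gene Zfr, and miR-1981, within Mtarc2, were close together in the authors' deposited table, at 14.1 and 13.1. All 4 lie beyond the range of the plant control and farther from 1 than the 95th percentile of the differences between paired assays. In GRCm38.p6 their mature sequences lie at chr8:128359251-128359272 on the + strand for miR-1903, chr7:135566234-135566255 on the + strand for miR-1962 and chr15:12171502-12171523 on the + strand for miR-1898; miR-1981-5p is at chr1:184822465-184822488 on the - strand.

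A second step below, miR-1969, which lies in no other annotated gene, stood at 9.78 in the authors' deposited table. MiR-1941-5p, within the spans of both the keratin gene Krt80 and the long non-coding RNA gene Gm35853, stood at 6.34 there. MiR-1954, within Eng, which encodes the endothelial co-receptor endoglin, stood at 3.75 in the authors' deposited table. The first of these mature sequences is at chr8:70925541-70925563, the second at chr15:101369364-101369387 and the third at chr2:32652342-32652362, each on the + strand. Endoglin marks endothelium, but a ratio of miR-1954 says nothing of the level of Eng, which the panel did not measure.

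Closer to 1 were 9 more miRNAs past the upper limit. MiR-1306, within Dgcr8, the gene of the RNA-binding partner of Drosha, stood at 2.74 in the authors' deposited table, a value inside the range of the plant control. MiR-1971 at 2.52, miR-1192 at 2.23 and miR-1959 at 2.13 followed in the authors' deposited table, below the plant control's lowest spot. MiR-1192 lies within Klf9, a glucocorticoid-responsive transcription factor gene. The authors' deposited table then listed miR-1191 at 1.76, miR-1896 at 1.75 and miR-1951 at 1.73. MiR-1906 at 1.60 and miR-1905 at 1.57 were the nearest to the limit in the authors' deposited table. RefSeq gives miR-1906 from a pair of loci of the same mature sequence, 1 of them within Meg3, the maternally expressed imprinted long non-coding RNA, and the other on the X chromosome, so that its signal cannot be assigned to either.

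At the lower end, miR-1199, within Misp3, had the lowest value of all miRNA spots on the panel, 0.000109 in the authors' deposited table. MiR-1943, within Tmem184b, stood at 0.000643 and miR-1897-3p, within Sox2ot, the long non-coding RNA that overlaps the stem cell factor gene Sox2, at 0.00136 in the authors' deposited table. A gap followed. MiR-1939 stood at 0.0841 and miR-1894-3p, within Ppp1r10, a regulatory subunit gene of protein phosphatase 1, at 0.0878 in the authors' deposited table. These 5 are the late-numbered miRNAs at least 4-fold below 1, and all 5 lie farther from 1 than that percentile. The mature miR-1897-3p is at chr3:34638511-34638532 and miR-1894-3p at chr17:35917938-35917959, both on the + strand. The 5p arm of miR-1199 lies at chr8:84011594-84011613 and that of miR-1943 at chr15:79375271-79375293, both on the - strand.

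The other 8 past the lower limit ran without a gap. MiR-1928, which lies in no other annotated gene (chr1:74206562-74206578, - strand), stood at 0.258 in the authors' deposited table. The authors' deposited table gave miR-1901 at 0.295 and miR-1904, within the cAMP phosphodiesterase gene Pde4d, at 0.365. MiR-1982.2 at 0.416, miR-1941-3p at 0.439 and miR-1982.1 at 0.465 came next in the authors' deposited table. MiR-1194 stood at 0.535 and miR-1932, within the ubiquitin ligase gene Rnf213, at 0.5998 in the authors' deposited table. Just inside the limits were miR-2183 at 0.671 and miR-1964 at 1.48 in the authors' deposited table.

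Hairpins with more than 1 product on the panel were of 2 kinds, those whose products were listed together and those whose products were far apart. Both arms of miR-1839, a hairpin of the box H/ACA small nucleolar RNA type, were near 1, at 1.05 for the 5p arm and 1.11 for the 3p arm in the authors' deposited table, 1.06-fold apart. The paired names miR-1982.1 and miR-1982.2 were both below 1 and 1.12-fold apart. In contrast, the arms of miR-1897 were 850-fold apart, with miR-1897-5p at 1.16 in the authors' deposited table. The arms of miR-1894 were 11.2-fold apart, with miR-1894-5p at 0.983 in the authors' deposited table. The arms of miR-1941 lay on opposite sides of 1, both past 1.5-fold, and were 14.4-fold apart. Neither arm of miR-1933 had a ratio. The arms with the far and the near value are shown for the hairpins that RefSeq held on both arms:
miR-1941-5p, listed at 6.34 in the authors' deposited table: aGGGAGAUgcugguacagaggcuu
miR-1941-3p, listed at 0.439 in the authors' deposited table: cAUCUUAGcaguaucucccau
miR-1894-5p, listed at 0.983 in the authors' deposited table: cUCUCCCCuaccaccugccucu
miR-1894-3p, listed at 0.0878 in the authors' deposited table: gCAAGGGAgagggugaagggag
The miR-1941 arms are at chr15:101369364-101369387 and chr15:101369401-101369421, and the miR-1894 arms at chr17:35917899-35917920 and chr17:35917938-35917959, all on the + strand. Arms of 1 hairpin come from 1 transcript, and with 1 value per arm the gap has no replicate check.

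**Figure D3:**
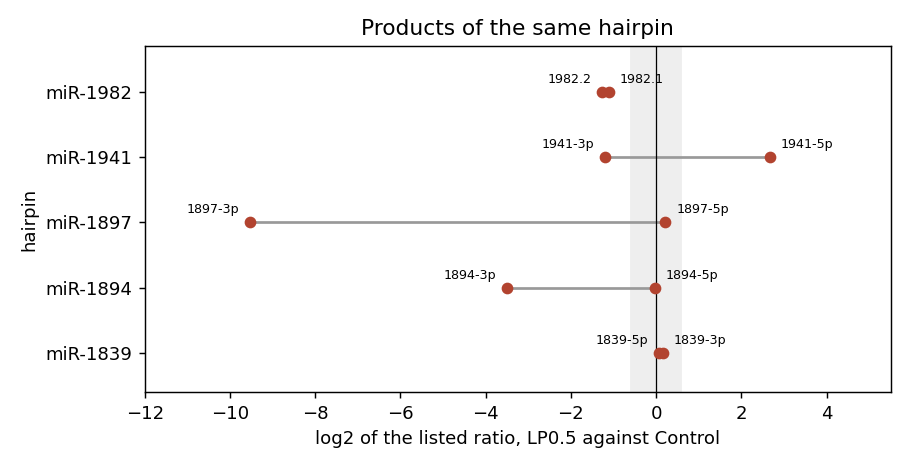
Log2 of the listed ratio (horizontal axis) for the 5 late-numbered hairpins with a pair of products listed (vertical axis); each point is 1 assay, a line joins the products of a hairpin and the grey band is within 1.5-fold of 1. The points of miR-1839 and of miR-1982 nearly coincide, while those of miR-1897, miR-1894 and miR-1941 are 850-fold, 11.2-fold and 14.4-fold apart.

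The names related to transfer RNA were listed close together. MiR-1274a, miR-1937b and miR-1937c, whose sequences are known to resemble fragments of transfer RNAs, stood at 0.857, 0.898 and 0.806 in the authors' deposited table. All 3 are within 1.5-fold of 1 and below it, but within the spread of repeated control spots. MiR-1224, a mirtron, whose hairpin is freed by splicing of a short intron of Vwa5b2 rather than by Drosha, had no ratio. Its mature arms, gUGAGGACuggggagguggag for 5p and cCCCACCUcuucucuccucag for 3p, lie at chr16:20604452-20604472 and chr16:20604516-20604536 on the + strand.

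The highest-numbered names were listed near 1, with no test of their spread against the others. The 6 listed miRNAs numbered 2000 and above ran from 0.671 for miR-2183 to 1.30 for miR-2138 in the authors' deposited table, and none was past 1.5-fold; the others of this block were miR-2134 at 0.862, miR-2135 at 0.869, miR-2182 at 0.902 and miR-2146 at 0.951. Of the 41 listed miRNAs numbered from 1800 up to 2000, 24 (58.5%) were past 1.5-fold, 13 above and 11 below. The share was 35.3% over all miRNA spots and 42.7% in the B set. This block, with 41 of the 55 listed members, held 10 of the 11 ratios at least 4-fold from 1. That is 24.4% of the block, where the share was 12.5% over all miRNA spots and 16.4% in the B set. Of the 6 listed miRNAs numbered from 1000 up to 1200, 2 were above the limit and 2 below. The assays were numbered in series too. Against the same 1.5-fold shares, 24 of 40 listed assays with numbers that start with 121 were past that limit, and 1 of 9 that start with 241. The series that starts with 241 is that of the names numbered 2000 and above, of both miR-1937 names and of miR-1894-3p. Number block and assay series cannot be told apart for the names above 2000, all of which lie in the series that starts with 241.

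**Figure D4:**
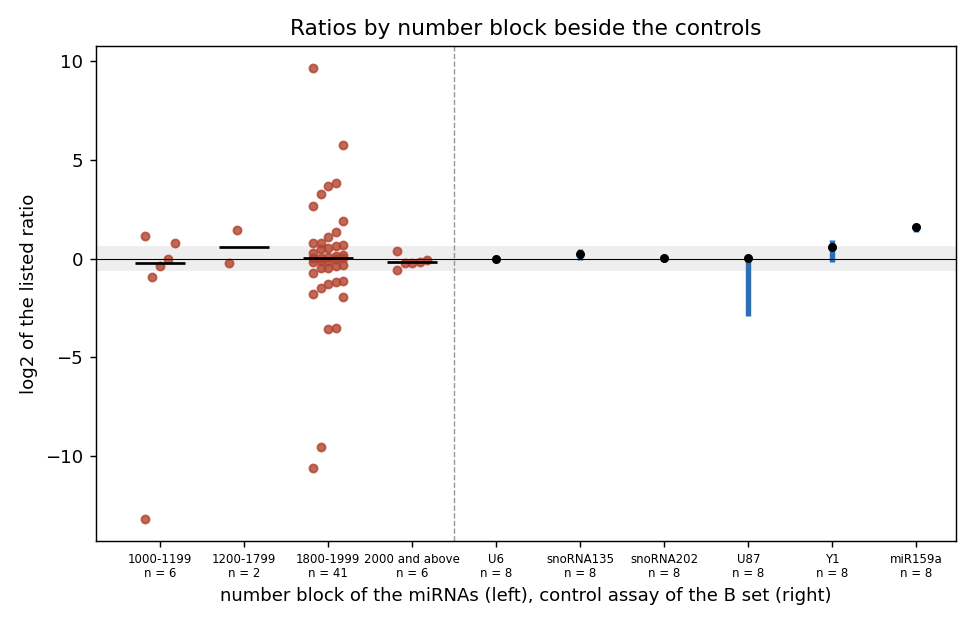
Log2 of the listed ratio (vertical axis) by number block, with 1 point per miRNA and a bar at the median (left), beside the control assays of the B set, where the bar runs from the lowest to the highest of 8 spots and the point is the median (right); the grey band is within 1.5-fold of 1. The 6 points numbered 2000 and above stay inside the band, those numbered from 1800 up to 2000 reach from 0.000643 to 801 as ratios, and the plant control lies above the band.

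The remaining late-numbered miRNAs within 1.5-fold of 1 filled the band from 0.715 to 1.43, as the authors' deposited table gives them. Nearest to 1 among these in the authors' deposited table were miR-1938 at 1.01, within Ifrd1, and miR-1960 at 1.02, within Hadhb, a gene of mitochondrial fatty acid oxidation. MiR-1198 at 0.976 and miR-1942 at 1.03 followed in the authors' deposited table. The authors' deposited table listed miR-1944 at 0.922 and miR-1949 at 0.912 just below them. MiR-1940 at 0.715, miR-1935 at 0.726, miR-1195 at 0.779 and miR-1930 at 0.781 were the lower ones, in the authors' deposited table, and miR-1957 at 1.24 and miR-1968 at 1.43 the higher ones.

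No ratio was listed for 29 of the 84 late-numbered miRNAs (34.5%), where the share without a ratio was 24.5% over all miRNA spots and 29.8% in the B set. The 29 names are miR-1186, miR-1224, miR-1893, miR-1899, miR-1900, miR-1902, miR-1927, miR-1931, miR-1933-3p, miR-1933-5p, miR-1934, miR-1936, miR-1945, miR-1946a, miR-1947, miR-1948, miR-1950, miR-1952, miR-1953, miR-1956, miR-1958, miR-1961, miR-1963, miR-1965, miR-1966, miR-1967, miR-1970, miR-2136 and miR-2139. A missing ratio gives no level, since the rule by which a ratio was left blank is not given in the sources used here. Among the 73 mouse names with a number from 670 up to 1000 the share was 50.7%.

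Seeds could be read for the 53 names with a RefSeq entry, and not for the other 31, miR-1937b and miR-1937c among them. The 64 mature sequences of these 53 names held 64 different seeds, so no seed was shared between any 2 of them, and 9 of the 64 shared theirs with another mouse miRNA in RefSeq. The ones that bear on better-known families are shown with their seeds:
miR-1961: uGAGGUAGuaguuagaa
miR-1928: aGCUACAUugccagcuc
miR-1192: aAACAAACaaacagaccaaauu
MiR-1961, within Shroom3, carries the seed of let-7 and miR-98, known as brakes on cell division, and had no ratio. The seed of miR-1928 is that of miR-221 and miR-222, known for acting on cell cycle inhibitors. In the authors' deposited table miR-221 stood at 1.28 and miR-222 at 0.880, on either side of 1, against 0.258 for miR-1928. MiR-1192 shares its seed with miR-495, of the Dlk1-Meg3 cluster, listed at 1.04 in the authors' deposited table against 2.23 for miR-1192. The panel's names for miR-221, miR-222 and miR-495 carry no arm and were taken as the 3p arm that RefSeq lists with this seed.

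Most of these miRNAs lie inside other genes. Of the 53 names with a RefSeq entry, 44 lie within the span of another annotated gene and 41 within that of a protein-coding gene, without regard to strand. Base composition was compared only for names with 1 mature sequence. That leaves out names matching both arms, among them miR-1199, miR-1943 and miR-1981, all at least 4-fold from 1. The arms of miR-1199 held 75% and 76.2% G and C, above every range given below. Those of miR-1943 held 60.9% and 66.7%, and those of miR-1981 52.4% and 58.3%. Among names with 1 mature sequence, the median share of G and C was 54.5% for the 7 at least 4-fold from 1, 59.1% for the 15 nearer to 1 and 52.3% for the 20 without a ratio, with ranges that overlap (39.1% to 63.6%, 27.3% to 68.2% and 35.3% to 68.2%).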

How the data were processed

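Each of the 846 spots has an entry in a file of linear ratios that the authors deposited (a ratio or fold of LP0.5 over Control, per the file headers), and 656 entries hold a value. The other file names the assay and small RNA of every spot, per the file headers. It also has 12 columns of per-sample values that match no sample label and were used in no step, so the planned limma test per miRNA was not run. The submitters' processing notes name limma, with no version. How samples were averaged, and from which cycle on a spot was left blank, is not given in the sources used here.

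Tables were joined by spot, members found by number, and ratios converted to log2. Blocks numbered 1 and 2 in the spot code formed the A set and 3 and 4 the B set. The 1.5-fold limit is a description, not a test. Members and lists were chosen with earlier results of these data known. Every member was to be named or counted, with values for those at least 1.5-fold from 1, next to that limit, in hairpins with more than 1 product or in the small RNA lists; the remaining values were added after they were seen. Sequences, seeds and enclosing genes come from RefSeq (GRCm38.p6), by name; no genome build is named for the panel. Counting was tested on simulated data. Alternatives changed the reference, the fold limit and the members counted. Python 3.11.15, numpy 2.4.6, pandas 2.3.3 and matplotlib 3.10.9 were used.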

Additional observations from a re-analysis of the deposited data

Results flagged for a closer look

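A signal appeared in data outside the main measurement: the 8 spots of the plant miRNA ath-miR159a in the B set, which holds all 84 late-numbered assays, had a median ratio of 3.01, against 0.995 for the U6 spots of that set. Of the 16 late-numbered miRNAs at least 1.5-fold above 1, 9 were listed no farther from 1 than the highest plant spot, and 7 farther.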

How the results depend on the processing

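No paired analysis was possible because the per-sample columns match no sample label and were used in no step; leaving out replicates, another normalization of cycles and a filter on late cycles were not run, as they belong to the test that needs those columns. The 16 miRNAs above and 13 below the 1.5-fold limit stayed within 1.5 times of these counts under 6 of 7 alternatives each. With the limit at the highest plant control spot, chosen after seeing the data and by construction stricter, they were 7 and 7. At 2-fold they were 11 and 11. With snoRNA135, snoRNA202, U87 and Y1 as the reference they were 14 and 15; miR-1905 and miR-1906 left the upper group and miR-1940 and miR-2183 joined the lower. Without 1 outlying U87 spot in that reference (a further setting chosen after seeing the data) they were 13 and 16, so that the share above 1 among those past the limit went from 55.2% to 44.8%. The median log2 ratio of -0.03 ranged from -0.25 to -0.05 over the alternatives that gave a median. Its lowest value, -0.25, came with that same reference without the U87 spot. By construction that reference lowers every log2 ratio of the set by 0.22, and the median with them. The remaining 1 of the 6 alternatives was a mean of log2 ratios held within 2, not a median, and stood at 0.01. Leaving out names with more than 1 spot changed nothing, as there were none. That alternative was bound to give 16 and 13 again, so it adds nothing to the 6 of 7.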
